A study of Mus musculus with 4 samples.

Results

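The Iroquois homeobox genes Irx1, Irx2, Irx3, Irx4, Irx5 and Irx6 were followed across the cell types of the embryonic pharyngeal region and heart. They were taken by gene symbol and make up 6 of the 32285 genes counted. The study compared conditional heterozygous (cHet) with conditional knockout (cKO) embryos for Kmt2d, a histone H3 lysine 4 methyltransferase, within the lineage of the T-box gene Tbx1. At E9.5 the pharyngeal region and heart were dissected from embryos labelled outbred SwissWebster, from mouse lines that the study's methods describe as kept on a mixed C57BL/6 and Swiss Webster background, and GFP-positive, DAPI-negative cells were sorted for 10x Genomics 3′ single-cell RNA sequencing. Males Tbx1Cre/+; Kmt2d f/+ had been mated to Kmt2d f/f; Gfp f/f females, so cHet embryos were Tbx1Cre/+; Kmt2d F/+; GFP F/+ and cKO embryos were Tbx1Cre/+; Kmt2d F/F; GFP F/+. Cre sits in the Tbx1 gene, so every cell of both genotypes carried a single functional Tbx1 copy. GFP marked the lineage, that is, cells in which this locus had driven Cre and the cells that descend from them. Each genotype had 2 libraries. The Rep1 libraries pooled 4 embryos each and used the Next GEM kit, and the Rep2 libraries pooled 3 embryos each and used the GEM-X kit, so kit and embryo pool cannot be told apart. A library of pooled embryos was the replicate throughout (n = 2 per genotype).

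Iroquois proteins are TALE-class homeodomain transcription factors that pattern the neural plate, limb, kidney and heart. In mammals the genes lie in paired genomic clusters, and members of a cluster can share long-range enhancers and be expressed in overlapping domains. Irx4 is the member best known from the heart, where it marks the ventricular chambers and takes part in keeping atrial genes off, whereas Irx3 and Irx5 act in the ventricular conduction system and in outflow tract and craniofacial development.

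On GRCm38, the build of the files, the GENCODE annotation placed Irx1 at chr13:71957921-71963723 on the minus strand, Irx2 at chr13:72628820-72634198 and Irx4 at chr13:73260479-73269608, the last pair on the plus strand. The gaps were 665 kb between Irx1 and Irx2 and 626 kb between Irx2 and Irx4. Irx3 lay at chr8:91798525-91802067 on the minus strand, followed on the plus strand by Irx5 at chr8:92357625-92376286 and Irx6 at chr8:92674288-92680956, with gaps of 556 and 298 kb. The gene IDs of all 6 rows matched this annotation. A long noncoding RNA gene, Crnde, starts 1505 bases from the Irx5 start on the opposite strand, and another, Gm20554, starts 256 bases from the Irx2 start on the opposite strand. Irx3 is overlapped by the antisense gene Irx3os and Irx6 by the antisense gene Gm45505, and how strand was handled in counting is not given in the sources used here, so reads of these pairs may not have been told apart.

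The RefSeq promoter windows on GRCm38.p6, which run from 250 bases before to 50 bases after a transcription start, were found for 3 of the 6 genes: Irx2, Irx3 and Irx4. The stretches before the gene are shown for Irx2, the member called between genotypes, and for Irx4, its cluster neighbour with the narrowest distribution. Capitals mark GGGCGG, the GC box. The Irx2 stretch is chr13:72628570-72628819 and lies in the 255 bases between Irx2 and Gm20554, and the Irx4 stretch is chr13:73260247-73260478, both on the plus strand.
Irx2: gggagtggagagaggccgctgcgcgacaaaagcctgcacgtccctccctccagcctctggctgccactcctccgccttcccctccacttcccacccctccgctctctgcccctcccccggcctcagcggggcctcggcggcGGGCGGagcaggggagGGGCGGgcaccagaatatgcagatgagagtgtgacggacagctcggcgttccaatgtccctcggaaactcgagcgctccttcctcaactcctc
Irx4: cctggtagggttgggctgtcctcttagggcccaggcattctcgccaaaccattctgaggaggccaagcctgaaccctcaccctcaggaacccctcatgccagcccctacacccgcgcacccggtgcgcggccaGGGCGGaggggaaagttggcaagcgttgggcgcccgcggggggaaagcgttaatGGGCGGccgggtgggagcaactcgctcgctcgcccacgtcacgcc
Over the full 300-base windows, GC content was 69.0% for Irx2 and 70.7% for Irx4, with 25 and 31 CpG dinucleotides, against medians of 52.7% and 7 over 32851 promoter windows of the genome. The Irx3 window, which lies wholly inside the GENCODE span of Irx3 and is not shown, had a GC content of 56.0% and 14 CpG. GGGCGG, searched on both strands, was found 2 times in the Irx2 window, at -109 and -93 from the start, 2 times in the Irx4 window, at -117 and -63, and 0 times in the Irx3 window, and was held by 35.7% of all windows. Neither TATAAA, held by 13.6% of all windows, nor ACANNTGT, a palindrome bound by Iroquois proteins and held by 7.38%, was found in any of the 3.

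After filters on genes per cell, mitochondrial reads, haemoglobin and doublets, 33448 cells were kept, 5869 to 11938 per library, at median depths of 17240.5 to 22972 UMIs per cell. They fell into 21 clusters, made without Irx genes, and these into 19 cell classes: 10 types named from marker genes and 9 clusters that no marker list named, which are called here by their number and leading genes. Each named type rested on 4 to 8 of its list's markers, no cluster passed a marker of the blood or macrophage lists, and of the neural crest list Sox10 and Erbb3 passed in the otic vesicle, Erbb3 and Tfap2b in the ectoderm, Erbb3 in the endoderm and Tfap2b in cluster 18. Libraries of the same replicate shared 12 and 41 barcodes of kept cells. The deposited matrix of cHet Rep1 stood apart, with 37093 barcodes, of which 5869 were kept, and 60% of its UMIs in kept cells, against 9307 to 16775 barcodes and 86.1% to 91.6% of UMIs in the others. The study's own summary of this library lists far fewer cells than the deposited barcodes, unlike for the other libraries, so the matrix may not be the one the study analysed, and its low-UMI barcodes may differ in kind. Barcodes under 1000 UMIs held Irx transcripts, and whether these are empty droplets or damaged cells was not tested. Among them the level was 51.1 to 69.4 CPM (the usual per-library scaling of a gene's UMIs to a common total) for Irx3, 26.3 to 44.2 for Irx5, 21.5 to 56.0 for Irx1 and 12 to 40.6 for Irx2, but 0 to 1.26 for Irx4 and 0 for Irx6. Kmt2d was called in 0 of the 19 classes by edgeR, with 2 at an unadjusted p under 0.05, and lay lower in cKO in both replicates in 9 of them. Tags from the 3′ end need not report a deletion elsewhere in a gene, so this did not check the labels.

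Irx1, Irx2, Irx3 and Irx5 were detected in many cells, and Irx4 and Irx6 in few. In the kept cells there were 31548 UMIs of Irx1 in 13570 cells, 21003 of Irx2 in 9995 cells, 38590 of Irx3 in 18212 cells and 31685 of Irx5 in 17066 cells, but 505 of Irx4 in 412 cells and 60 of Irx6 in 58 cells. Between 17.1% and 22.9% of the cells of a library had no Irx UMI, and 9.09% to 14.4% held Irx1, Irx2, Irx3 and Irx5 together. That last share was 22.7% to 33.7% in cluster 1 (4160 cells, leading genes Cyp26a1, Vcam1 and Corin) and 0% to 0.451% in the endothelium. Levels below are CPM of the UMIs summed over the cells of a class in a library. Over all kept cells Irx3 was 52.1 to 61.2 CPM, no higher than its level in the low-UMI barcodes in 2 of 4 libraries, and Irx1 likewise in 2 of 4. A class level exceeded that of the low-UMI barcodes of its library in all 4 libraries in 6 of 19 classes for Irx1 and for Irx2 (MLPs, ectoderm, endoderm, neuronal, otic vesicle and cluster 1 for both), in 4 for Irx3 (MLPs, aSHF, ectoderm and otic vesicle) and in 9 for Irx5. It lay below in all 4 in 7, 7, 9 and 3 classes, where a UMI is not read as expression by the cell. The UMI counts behind the low-UMI levels are not given here, and these levels carry no interval. A class close to such a level may therefore be placed on the wrong side, and the low-UMI levels of Irx4 and Irx6 are uncertain. These levels are compared for 1 gene across classes and not between genes. Clusters were drawn from the same cells, so levels across classes are descriptions and carry no test, and fewer cells with a transcript and less transcript per cell are not told apart by such a sum.

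Irx1 had its highest median level in cluster 1, of which it was itself one of the 10 leading genes. It measured 76.5 CPM in cHet Rep1, 96.1 in cKO Rep1, 124 in cHet Rep2 and 124 in cKO Rep2. In the otic vesicle, next in order, it was 70.6, 69.7, 131 and 144 in the same library order. The endoderm (median 92.7 CPM, range 61.1 to 99.9), the multilineage progenitors (MLPs, 70.4) and neuronal cells (63.1) followed. The ranges over the 4 libraries overlapped for 17 of the 18 neighbouring pairs in this order. Only the lowest pair was apart, with cardiac muscle at 6.52 (6.21 to 8.18) above the endothelium at 2.33 (2.22 to 3.93). Both classes lay below the level of Irx1 in the low-UMI barcodes in every library.

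Irx2, the neighbour of Irx1, followed nearly the same order with the otic vesicle lower down. Its median level was 69.2 CPM in cluster 1 (48.1 in cHet and 63.1 in cKO of Rep1, 75.2 and 91.3 in Rep2), 63.2 in the endoderm, 56.1 in MLPs, 55.8 in the ectoderm and 52.6 in the otic vesicle. At the other end stood cluster 12 (Foxd2os and Foxd1) at 5.18, cluster 4 (Vtn and Cthrc1) at 4.02, cluster 10 (Adamtsl1 and Tagln) at 3.06 and the endothelium at 2.79. Ranges overlapped for all 18 neighbouring pairs, so only classes farther apart in the order were separate.

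Irx3 and Irx5 were spread more evenly. The highest median level of Irx3 was in the anterior second heart field (aSHF), the progenitors of the outflow tract and right ventricle, where the libraries lay close together at 94.5 CPM in cHet Rep1, 88.8 in cKO Rep1, 91.6 in cHet Rep2 and 84.0 in cKO Rep2. MLPs (85.8), the otic vesicle (83.5) and the ectoderm (76.2) followed. The lowest levels were 16.1 in the endothelium (14.7 to 17.9) and 7.47 in cardiac muscle (6.21 to 15.8), and all 18 neighbouring pairs overlapped. Irx5 was highest in cluster 13 (1060 cells, led by Igf1, Tenm2 and Ptx3), with 63.3 CPM in cHet Rep1, 52.6 in cKO Rep1, 70.9 in cHet Rep2 and 65.2 in cKO Rep2, then in MLPs (62.0), cluster 1 (60.8) and aSHF (59.3). It was lowest in cluster 19 (18.9, 15.7 to 25.6), the endothelium (11.3, 9.0 to 13) and cardiac muscle (3.94, 2.73 to 5.28), and the ranges of these last 3 did not overlap.

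The share of Irx UMIs that came from each genomic cluster differed between classes. Set out as shares of all Irx UMIs of a class, which are compared across classes, Irx1, Irx2 and Irx4 together made up a median of 16.3% in cluster 10. That share was 16.5% in the endothelium, 18.6% in cluster 12, 23.8% in cluster 4 and 27.9% in cluster 2 (Pcdh9 and Galntl6). It was 61.1% in the endoderm, 63.3% in cluster 19 (Pax3 and Tcf15), 63.9% in neuronal cells and 66.4% in cardiac muscle, where Irx4 alone made up 35.6%. The median ratio of Irx1 to Irx2 UMIs ran from 0.867 in the endothelium (0.788 to 1.41) and 0.893 in the ectoderm (0.706 to 1.01) to 3.54 in cluster 10 (2.79 to 3.8) and 4.12 in cluster 4 (3.97 to 5.28). The median ratio of Irx3 to Irx5 stayed between 0.935 and 1.68 in every class other than the otic vesicle (2.61, 1.91 to 3.00) and cardiac muscle (2.21, 1.18 to 4.33, from 74 and 37 UMIs). In clusters 4, 10 and 12, the endothelium and cardiac muscle, Irx1 and Irx2 lay below the low-UMI barcodes in every library. A UMI of these genes there is not read as expression by the cell, so the shares and ratios of these classes describe UMIs only. Irx4 in cardiac muscle lay above. The part of RNA from outside the cells was not tested.

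**Figure D1:**
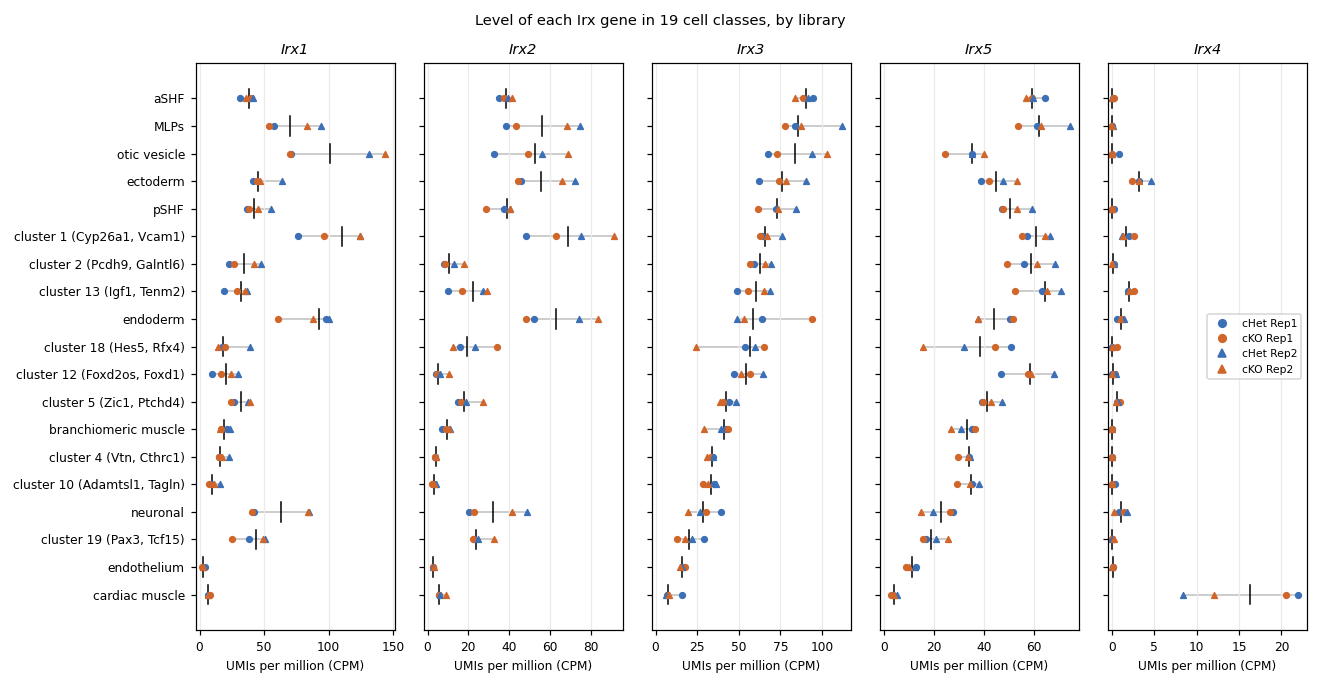
Level of Irx1, Irx2, Irx3, Irx5 and Irx4 in each of the 19 cell classes, in CPM on linear axes that differ between panels, with classes ordered by Irx3. Blue is cHet and orange cKO, circles are Rep1 and triangles Rep2, the grey line spans the 4 libraries and the black tick is their median. Irx4 stands clear of 0 in cardiac muscle, where the Rep1 libraries lie above the Rep2 libraries.

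The difference between replicates depended on the scale. On the CPM used above, both Rep2 libraries lay above both Rep1 libraries in 13 of 19 classes for Irx1 and below in 1, and above in 17 and below in 0 for Irx2. After TMM scaling between the libraries of a class, as used for the genotype tests further on, they lay above in 7 and below in 2 of 19 for Irx1 and above in 6 and below in 3 for Irx2. For Irx3 the direction turned, from 7 above and 4 below on CPM to 0 above and 10 below of 19 on the scaled levels, and for Irx5 from 11 and 4 to 0 above and 9 below of the 18 classes tested. In cluster 1, for example, Irx5 was 65.7 and 63.4 scaled CPM in cHet and cKO of Rep1 and 57.2 and 56.8 in Rep2. No direction between the replicates is therefore read from these levels. Kit, embryo pool and the Cell Ranger version in the file headers (7.0.1 in Rep1, 8.0.1 in Rep2) cannot be told apart in them.

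Shares of cells with a UMI depended on depth. In cluster 1 a median of 75.3% of cells had an Irx1 UMI, a share that became 38.2% when all cells were thinned to 5000 UMIs. Thinned shares were 25.6% for Irx2 in cluster 1, 33.7% for Irx3 in aSHF and 25.2% for Irx5 in cluster 13. In the endothelium, with median depths of 16628 to 27140.5 UMIs, thinned shares were 1.02%, 1.15%, 6.84% and 5.64% for Irx1, Irx2, Irx3 and Irx5. In cardiac muscle they were 1.48%, 2.27%, 4.11% and 3.26% in the same order, on 0 to 6 positive cells per library. The ranges over libraries of these classes overlapped for Irx1, Irx2 and Irx3, and for Irx5 they were 0% to 4.07% in cardiac muscle and 4.74% to 6.77% in the endothelium.

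Branchiomeric muscle, the progenitors of the facial, jaw and neck muscles, was not uniform. It was made of cluster 6 (2315 cells, led by Lhx2, Tlx1 and Plcxd3) and cluster 14 (1012 cells, led by Emx2, Vgll3 and Neto1). Irx1 measured 13.6, 8.15, 6.34 and 6.61 CPM in cluster 6 and 42.0, 35.1, 54.4 and 39.2 in cluster 14, with Rep1 before Rep2 and cHet before cKO in each. Irx2 was 3.82 (3.38 to 5.96) against 20.1 (17.4 to 27.6) and Irx3 29.3 (23.3 to 37.2) against 60.2 (42.7 to 67.9), and for none of these 3 genes did the ranges overlap. In cluster 6 these 3 genes lay below their level in the low-UMI barcodes in every library, and in cluster 14 above it in some libraries and below it in others. The part of RNA from outside the cells was not tested. Irx5 was 29.6 (21.2 to 36.0) in cluster 6 against 37.1 (33.5 to 48.6) in cluster 14, with ranges that overlapped. Irx6 had 32 of its 60 UMIs in this class, and all 32 lay in cluster 6, in 31 of its 2315 cells.

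**Figure D2:**
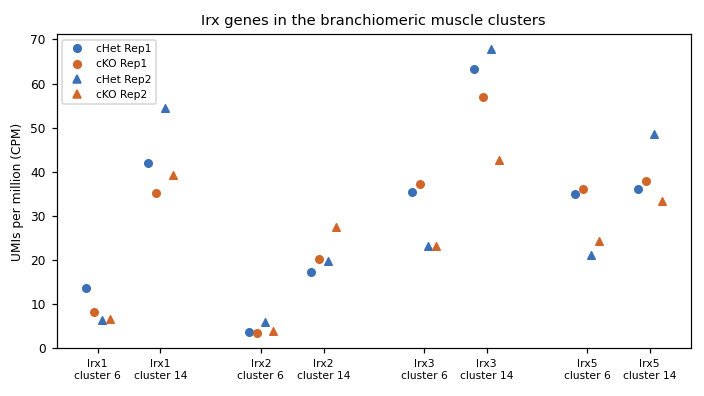
Irx1, Irx2, Irx3 and Irx5 in the clusters 6 and 14 that make up branchiomeric muscle, in CPM on a linear axis from 0, with 1 point per library (blue cHet, orange cKO, circles Rep1, triangles Rep2). Irx1, Irx2 and Irx3 in cluster 14 lie above every library of cluster 6, whereas the Irx5 ranges meet.

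The endothelium also held a small cluster with more Irx2. Cluster 21 (276 cells, led by the early haemato-endothelial genes Etv2, Tal1 and Lmo2) had a median of 8.44 CPM Irx2 (7.25 to 9.54), against 1.82 (1.27 to 2.20) in cluster 9 (1630 cells, led by Emcn and Cdh5), and the ranges did not overlap. Irx3 and Irx5 were higher in cluster 21 in the cHet libraries alone. Irx3 was 42.6 against 10.4 CPM in cHet Rep1 and 26.5 against 14 in cHet Rep2, but 15.7 against 18.1 in cKO Rep1 and 11.5 against 15.3 in cKO Rep2. Irx5 was 25.8 against 10.1 and 20.7 against 11.4 in cHet of Rep1 and Rep2, but 6.05 against 9.36 and 9.06 against 10.1 in cKO. Cluster 21 had 98 and 64 cells in cHet and 31 and 83 in cKO, and the genotypes were not tested within it. All of these levels lay under that of the same gene in the low-UMI barcodes of every library, and the part of RNA from outside the cells in them was not tested.

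For Irx1, Irx2, Irx3 and Irx5 the gene whose levels followed the member most closely was a partner from the same genomic cluster, and for Irx4 it was not. Over 84 sums of 1 cluster in 1 library, and among 9346 candidate genes, Irx2 was the gene most like Irx1 and Irx1 the gene most like Irx2 (Pearson r = 0.90 on the log2 scale), and Irx5 and Irx3 were likewise each other's first match (r = 0.90). These sums share libraries, clusters and depth, and r is given as a description. Across the genomic clusters r was 0.71 for Irx1 with Irx3, 0.60 for Irx1 with Irx5, 0.64 for Irx2 with Irx3 and 0.47 for Irx2 with Irx5. Crnde, which starts beside Irx5, was the next gene after Irx3 for Irx5 (r = 0.86) and the next after Irx5 for Irx3 (r = 0.83), and Ift74, an intraflagellar transport gene, followed for Irx5 (0.80). Meis2, a TALE homeobox gene, came second for Irx2 (0.81) and Crabp2, which binds retinoic acid in the cell, followed (0.76). For Irx1, Mcoln3 (0.75) and Zfp113 (0.74) came after Irx2, and for Irx3 Cenpk (0.75) came after Crnde. Irx4 was most like the cardiac genes Nppa, Cox6a2 and Nppb (0.88 each). With its own cluster partners Irx4 had r = -0.12 (Irx1) and 0.00 (Irx2), and with Irx5 r = -0.43. Irx6 had too few UMIs to be ranked.

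The same pairing was seen within cells. Co-detection was measured as the odds ratio of finding a UMI of both genes in a cell, taken within clusters in each library after thinning to 5000 UMIs, so that differences between clusters and in depth between cells would not enter it. For Irx1 with Irx2 it was 2.06 in cHet Rep1, 1.58 in cKO Rep1, 2.04 in cHet Rep2 and 2.12 in cKO Rep2 (median 2.05), over 1495 cells with both. For Irx3 with Irx5 it lay between 1.44 and 1.55 (median 1.47, 2006 cells). The 4 pairs that cross the genomic clusters had medians of 1.28 for Irx1 with Irx3 (1.02 to 1.39), 1.21 for Irx2 with Irx3 (1.14 to 1.29), 1.17 for Irx2 with Irx5 (1.09 to 1.34) and 1.08 for Irx1 with Irx5 (1.03 to 1.27). In every library both linked pairs lay above all 4 unlinked pairs. Over all cells of a library, where differences between clusters do enter, the Irx1-Irx2 odds ratio was 3.35 (median), and a median of 23.9% of cells with an Irx1 UMI had an Irx2 UMI, against 8.84% of cells without, and 26.4% of cells with an Irx3 UMI had an Irx5 UMI, against 16.9% without. No p is given, since cells of a library are not replicates. Clusters in which a member lay below the low-UMI barcodes were included, and the part of RNA from outside the cells was not tested. The pairs with Irx4 rested on 24 to 29 cells with both genes and those with Irx6 on 0 to 4, too few to place.

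**Figure D3:**
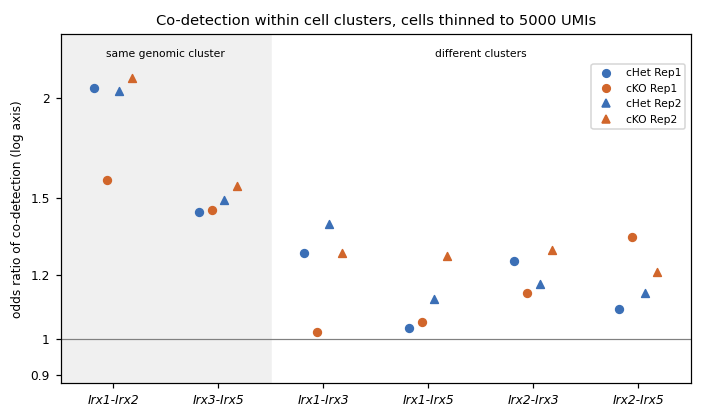
Odds ratio of co-detection of 2 Irx genes in the same cell, on a log axis, within clusters and after thinning to 5000 UMIs, with 1 point per library (blue cHet, orange cKO, circles Rep1, triangles Rep2) and a line at 1, no association. The pairs of 1 genomic cluster, Irx1-Irx2 (1.58 to 2.12) and Irx3-Irx5 (1.44 to 1.55), lie above the 4 pairs across clusters (1.02 to 1.39).

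Class by class, Irx1 with Irx2 lay over 1 in all 4 libraries in 11 of the 14 classes where every library gave a value, and Irx3 with Irx5 in 11 of 16. For the unlinked pairs this was so in 7 of 16 (Irx1-Irx3), 2 of 15 (Irx1-Irx5), 3 of 14 (Irx2-Irx3) and 4 of 13 (Irx2-Irx5). The median of the class medians was 2.34 for Irx1-Irx2, but 1.46 for Irx3-Irx5 lay close to 1.44 for the unlinked Irx1-Irx3. It was 1.1 to 1.16 for the other unlinked pairs. Among these 14 classes the Irx1-Irx2 ratio had its highest median in branchiomeric muscle, 5.59 (3.87 to 8.80), which as described holds clusters with unlike Irx1 and Irx2 levels, then in cluster 2, 4.75 (4.50 to 10.8), in the posterior second heart field (pSHF), 3.73 (2.70 to 5.55), and in the otic vesicle, 3.59 (2.04 to 5.33). It was 1.32 in MLPs (1.06 to 1.58). Irx1 and Irx2 in branchiomeric muscle, and Irx2 in cluster 2, lay below their level in the low-UMI barcodes in all 4 libraries. A UMI there is not read as expression by the cell, so the place of these classes in the order is not either. For Irx3 with Irx5 the endoderm came first, with 3.93 (2.02 to 13.4), and then branchiomeric muscle, with 2.88 (1.62 to 4.36). The endoderm had only 14 to 46 cells per library with an Irx5 UMI after thinning, so its place in the order is uncertain. In branchiomeric muscle Irx3 too lay below the low-UMI barcodes in every library.

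Cells with and without a UMI of a member were also compared for all genes within the named types, after thinning, and ranked by the smallest log2 ratio of the 4 libraries. In branchiomeric muscle, Irx1 cells had more Cdh13, a cadherin, with 184 against 44.3 CPM and log2 ratios of 1.70 to 2.54, more Irx2 with 36.4 against 6.88, and more of the sodium channel Scn3a with 113 against 31.8. Irx2 cells of this class were led by Irx1 (95.5 against 18.6 CPM, log2 ratios of 1.61 to 2.48). In pSHF the leading gene of Irx1 cells was Irx2 (85.3 against 25 CPM, log2 ratios of 1.15 to 1.92). Irx2 cells there were led by the calcium channel subunit gene Cacna2d3 (172 against 41.0), with Irx1 the third gene (94.4 against 34.6, log2 ratios of 1.16 to 1.86). Scn3a and Cacna2d3 are also among the 10 leading genes of MLPs. In branchiomeric muscle and pSHF the genomic cluster partner was thus among the leading genes. In the other named types ranked, Irx2 was not among the 3 leading genes of Irx1 cells, nor Irx1 among those of Irx2 cells. Irx5 was not among those of Irx3 cells in any type, and Irx3 was among those of Irx5 cells in the endoderm alone. In branchiomeric muscle, 388 of the 1012 cells of cluster 14 had an Irx1 UMI before thinning, against 289 of the 2315 of cluster 6, so these values also carry the difference between its clusters. Irx1 and Irx2 lay below the low-UMI barcodes in this class in all 4 libraries. Its cells are therefore sorted by a UMI that is not read as expression by the cell.

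Other leading genes were read in the epithelia and among neuronal cells. Irx1 cells of the endoderm had more Rarres1 (151 against 25.8 CPM, log2 ratios of 1.67 to 3.97), those of the ectoderm had more Ripply3, a Tbx1-interacting repressor of the pharyngeal region (116 against 34.7), and more Prdm1 (189 against 72.6), and those of the otic vesicle had more Fam20a (29.1 against 5.86) and more of the hair-cell cadherin Pcdh15 (176 against 64.3). Among neuronal cells, those with Irx1 had more Dscaml1 (118 against 20.7) and the growth factor gene Fgf10 (144 against 48.7). After thinning, the smallest library held 11 Irx1 cells in the endoderm, 16 in the ectoderm, 26 in the otic vesicle and 25 among neuronal cells. Low levels there rest on few UMIs, and the genes were ranked by their ratio in these same cells. Irx2 cells of the endoderm had more Hoxb1 (61.3 against 20.5), and also more Gm20554, the noncoding neighbour of Irx2 described above (9.20 against 0.439). These were 168 cells in all after thinning, 13 in the smallest library, so the Gm20554 level rests on few UMIs. Irx5 cells of the endoderm had more Irx3 (142 against 39.6, log2 ratios of 0.97 to 2.31) and more of the anterior homeobox gene Otx2 (59.4 against 19.4). Irx3 cells of the endoderm had more Wnt6 (36.0 against 9.21). Those of branchiomeric muscle had more of the neurotrophin receptor Ntrk3 (34.8 against 10.7, log2 ratios of 1.27 to 1.60). Irx3 lay below the low-UMI barcodes in branchiomeric muscle in every library, so a UMI there is not read as expression by the cell. In MLPs and aSHF no leading gene of any member had a smallest log2 ratio above 0.66. The smallest library held 88 to 157 positive cells in MLPs and 42 to 113 in aSHF, depending on the member. These groups were larger than those of the epithelia, so the size of the ratios is not compared between classes. In cardiac muscle the library with fewest positive cells after thinning had 0 to 2 of them, depending on the member, so no values are given.

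Irx4, in contrast, had its highest level in 1 small class. In cardiac muscle it was 21.9 CPM in cHet Rep1, 20.5 in cKO Rep1, 8.38 in cHet Rep2 and 12 in cKO Rep2, a median of 16.2, and every one of these lay above all libraries of the next class, the ectoderm (3.19, 2.43 to 4.65). Rep1 was above Rep2 here in both genotypes. Cluster 13 (1.99), cluster 1 (1.68), neuronal cells (1.12) and the endoderm (1.10) followed at low levels. Of the 412 cells with an Irx4 UMI, 63 were cardiac muscle, which is 17.5% of its 361 cells, whereas 133 were in cluster 1, 65 in the ectoderm, 43 in cluster 5 and 42 in cluster 13, classes with more cells. No Irx4 UMI was seen in branchiomeric muscle, 0 of 3327 cells, which allows a share of up to 0.0902%, nor in cluster 4, 0 of 2744 cells, which allows up to 0.109%. The limit covers counting error only and bounds the share of cells with a UMI, not the share that expresses the gene. Cardiac muscle had 26 cells in cKO Rep1 and 75, 123 and 137 in the other libraries. Its median Irx4 level was 9.29 CPM when cells called as doublets were kept, which added cells and drew the clusters again, and 9.62 with another random seed, in place of 16.2.

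Within cardiac muscle, chamber genes were read in cells with and without an Irx4 UMI. Myl2, the ventricular myosin regulatory light chain, was higher in Irx4 cells in all 4 libraries: 2391 against 795 CPM in cHet Rep1, 2116 against 1507 in cKO Rep1, 1347 against 230.2 in cHet Rep2 and 1839 against 395 in cKO Rep2. Myl3, a ventricular and slow-muscle light chain, was also higher in all 4 by a smaller margin (log2 ratios of 0.11 to 0.56). Hey2, a repressor of the ventricular compact layer, and Nppa, a natriuretic peptide gene of the embryonic chambers, were higher in 3 of 4, with cKO Rep1 the exception for both. Hey2 had log2 ratios of 1.48, -0.41, 2.05 and 1.85 in the library order used above and Nppa 1.49, -1.08, 2.52 and 2.63. Myh7 and Hand1, also of the ventricular list, were lower in Irx4 cells in 3 of 4 libraries, again with cKO Rep1 the exception (log2 ratios of -0.18, 0.51, -0.27 and -0.62 for Myh7 and -0.77, 0.34, -1.80 and -0.57 for Hand1). Nr2f2, an atrial identity gene, was lower in Irx4 cells in all 4 libraries (log2 ratios of -4.68 to -0.57). Gja5, on the ventricular list because it marks trabeculae, had no UMI in any Irx4 cell and 1.67 to 10.9 CPM in the others. Only 2.56% to 8.93% of the others had a Gja5 UMI, so its absence from such small groups does not show a difference. Tbx5 was higher in 3 of 4 and Nr2f1 in 2 of 4. The groups were small, 12 to 20 cells with and 14 to 117 without Irx4, and the Irx4 cells were deeper in each library, with median UMIs of 21574 to 32724 against 19696 to 25862. The part of depth was not tested.

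**Figure D4:**
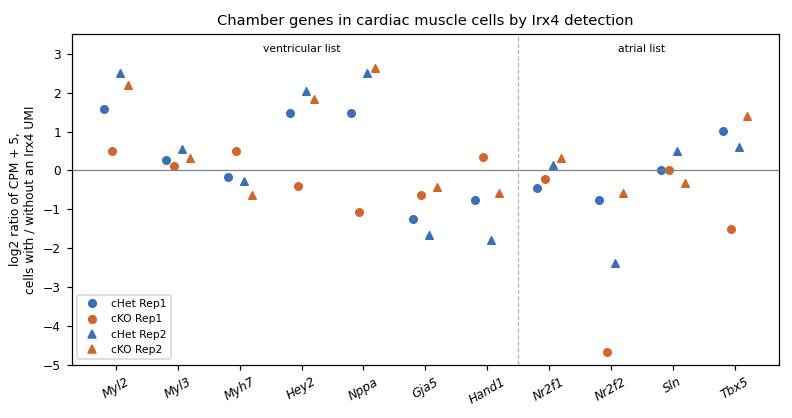
Log2 ratio of CPM, with 5 CPM added, between cardiac muscle cells with and without an Irx4 UMI, for the 7 genes of the ventricular and the 4 of the atrial list, with 1 point per library (blue cHet, orange cKO, circles Rep1, triangles Rep2) and a line at 0, no difference. Myl2 and Myl3 lie above 0 and Nr2f2 and Gja5 below it in all 4 libraries, and cKO Rep1 departs from the others for Hey2, Nppa and Tbx5. Gja5 is near the floor, with a UMI in 2.56% to 8.93% of the cells without Irx4.

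The effect of the Kmt2d genotype was then tested, cKO against cHet, by edgeR's quasi-likelihood test on UMIs summed per library and class, with a block for the replicate and p-values adjusted by Benjamini-Hochberg over all genes tested in the class (called "adjusted p" below, n = 2 libraries per genotype). The 6 Irx genes gave 81 tests over the 19 classes. Irx1, Irx2 and Irx3 passed the filter on low counts in 19 classes, Irx5 in 18, Irx4 in 5 and Irx6 in 1. The test called 1 of the 81, Irx2 in cluster 1, higher in cKO, and 18 had an unadjusted p under 0.05, a threshold that 6.48% of all tests over all genes passed. The share of all tested genes that was called was 0.398% in cluster 1. It was 0.785% in MLPs, 0.446% in aSHF, 0.950% in branchiomeric muscle, 0.565% in pSHF, 0.151% in cardiac muscle and 0.0408% in neuronal cells. Among epithelia and vessels it was 0.0236% for ectoderm, 0.104% for endoderm, 0.198% for otic vesicle and 0.0153% for endothelium. In the other unnamed clusters it was 2.23% in cluster 2, 0.756% in cluster 4, 0.926% in cluster 5, 0.865% in cluster 10, 0.0607% in cluster 12, 0.959% in cluster 13, 0% in cluster 18 and 0.407% in cluster 19. DESeq2 called 0 of the 81 and had 1 at an unadjusted p under 0.05, that of Irx2 in cluster 1 (0.00335).

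Irx2 was higher in cKO cells of cluster 1, whose leading genes include Cyp26a1, which degrades retinoic acid, and the adhesion gene Vcam1. Its scaled level was 55.4 CPM in cHet Rep1 and 72.2 in cKO Rep1, and 65.1 in cHet Rep2 and 80.5 in cKO Rep2. The genotypes did not overlap on this scale, and cKO was the higher within each replicate (log2 fold change 0.34, SE 0.06, 95% interval 0.21 to 0.47, edgeR adjusted p = 0.0242). Before scaling between libraries the levels were 48.1, 63.1, 75.2 and 91.3 in the same order, and here the genotypes overlapped across replicates. The share of cells with an Irx2 UMI after thinning was 19.7% in cHet and 24.1% in cKO in Rep1, and 27.2% and 30.5% in Rep2. In barcodes under 1000 UMIs the level of Irx2 was lower in cKO within each replicate, 12 against 19.1 CPM and 28.9 against 40.6. Those barcodes may differ in kind in cHet Rep1, and the UMI counts behind these levels are not given. The part of RNA from outside the cells in the Irx2 difference was not tested.

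The call rested on the choice of test and of cells, although the value was above 0 in each case. It was lost with DESeq2 (log2 fold change 0.35, adjusted p = 1.000), after thinning to 5000 UMIs (0.35, edgeR adjusted p = 0.0509), and in the edgeR fit without the block (0.34, adjusted p = 1.000). It was also lost in each edgeR fit that left out 1 library, where no block is possible, with 0.22 without cHet Rep1, 0.42 without cKO Rep1, 0.47 without cHet Rep2 and 0.26 without cKO Rep2 (adjusted p = 1.000 in each). When the cells were clustered again, the class that shared most cells with cluster 1 held 64.1% of them with doublets kept, 56.2% with random seed 1 and 65.0% with random seed 2. In these classes Irx2 had log2 fold changes of 0.28, 0.36 and 0.27 (edgeR adjusted p = 0.362, 0.0894 and 0.192), and no Irx gene was called in any class of these clusterings.

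In no other class did Irx2 pass the test. The classes share the same 4 libraries, so a count of classes is a description. Both replicates gave a higher level in cKO in 8 of 19 classes, namely aSHF, cardiac muscle, the otic vesicle and clusters 1, 2, 5, 12 and 13, and a lower one in the ectoderm, pSHF and cluster 10. Over all genes tested in all classes, 25.7% of tests were higher and 25.5% lower in cKO in both replicates, and 48.8% differed in side. The median log2 fold change over classes was 0.11, and 5 of 19 tests had an unadjusted p under 0.05, all higher in cKO. In the otic vesicle Irx2 was 37.9 and 56.5 CPM in cHet and cKO of Rep1 and 49.5 and 60.4 in Rep2 (0.40, SE 0.15, edgeR adjusted p = 0.644). In cluster 5 (Zic1 and Ptchd4) it was 16.7 and 18.8, and 16.5 and 24.2 (0.41, SE 0.11, edgeR adjusted p = 0.0631), and it was called there when every gene with a count was tested. The difference between classes was tested for Irx2 in cluster 1 as an interaction. Its log2 fold change there exceeded that in MLPs by 0.32 (edgeR adjusted p = 0.00413) and that in pSHF by 0.46 (edgeR adjusted p = 0.00121). These were the 2 called of 18 such comparisons, of which 6 had an unadjusted p under 0.05. The differences ran from -0.33 (cluster 12) to 0.79 (cluster 10). Cluster 1 was taken as the reference because Irx2 was called there, so its value was chosen as high, and the comparison was not repeated under the settings that lost the call.

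**Figure D5:**
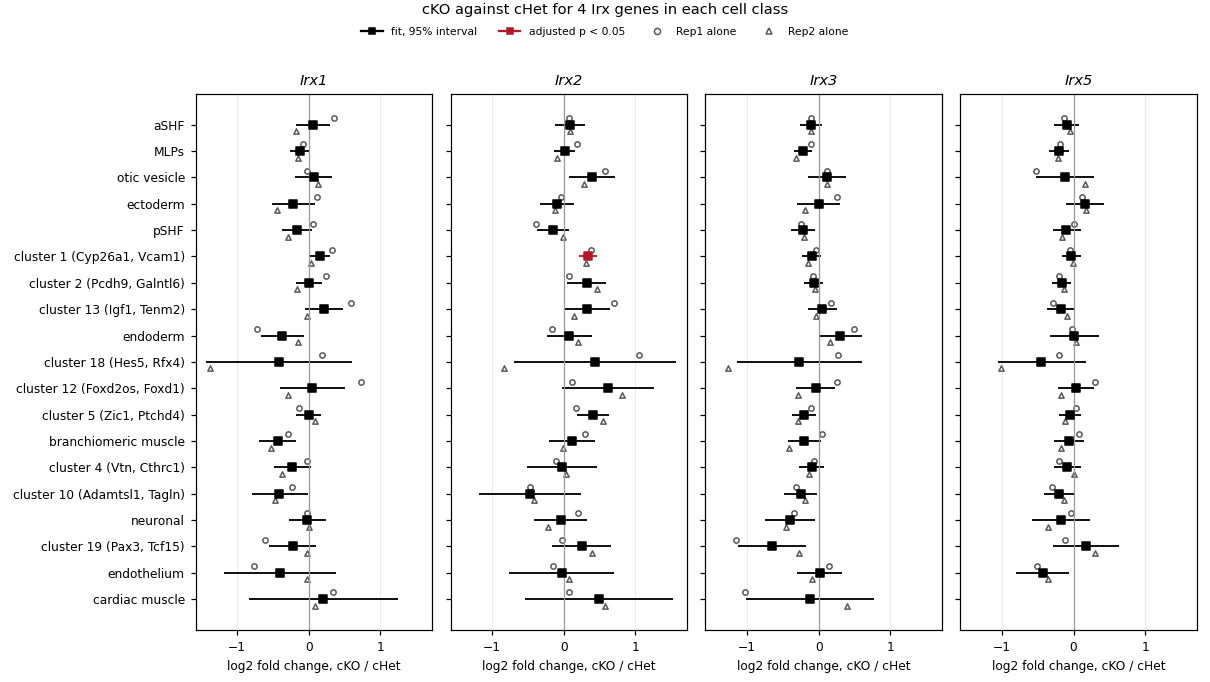
Log2 fold change of cKO against cHet for Irx1, Irx2, Irx3 and Irx5 in each class, with squares and bars for the fitted value and its 95% interval, open circles for Rep1 alone and open triangles for Rep2 alone. Red marks Irx2 in cluster 1 (0.34), the call at an adjusted p under 0.05, and Irx5 has no value in cardiac muscle.

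Irx1 was called in 0 of 19 classes by edgeR and by DESeq2, with 4 of 19 edgeR tests and 0 of 19 DESeq2 tests at an unadjusted p under 0.05. It was lower in cKO in both replicates in 7 of 19 classes and higher in 2, beside the 25.5% and 25.7% of all tests, with a median log2 fold change of -0.12. In branchiomeric muscle it was 23.3 CPM in cHet and 18.9 in cKO of Rep1 and 20.9 and 14.4 in Rep2 (-0.43, SE 0.12, edgeR adjusted p = 0.121). In the endoderm it was 112 and 67.3 in Rep1 but 88.7 and 79.9 in Rep2 (-0.37, SE 0.15, edgeR adjusted p = 1.00). Cluster 1, where Irx2 was called, gave Irx1 a value of 0.16 (SE 0.07, edgeR adjusted p = 0.525), with 88 and 110 CPM in Rep1 and 108 and 110 in Rep2.

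Irx3 and Irx5 were called in 0 classes by either tool. Irx3 was lower in both replicates in 10 of 19 classes and higher in 2, the endoderm and the otic vesicle, and Irx5 was lower in 9 of 18 and higher in 1, the ectoderm, beside the same 25.5% and 25.7% of all tests. Their medians over classes were -0.11 and -0.10. In MLPs, Irx3 was 95.5 CPM in cHet and 88.8 in cKO of Rep1 and 97.3 and 77.7 in Rep2 (-0.22, SE 0.07, edgeR adjusted p = 0.0841), and Irx5 was 69.6 and 61.1, and 64.9 and 55.8 (-0.20, SE 0.07, edgeR adjusted p = 0.239). In pSHF, Irx3 was 82.0 and 69.5, and 75.1 and 65.3 (-0.22, SE 0.08, edgeR adjusted p = 0.609). In cluster 1 their values were -0.10 and -0.03 (edgeR adjusted p = 0.740 and 0.963). At an unadjusted p under 0.05 there were 6 of 19 edgeR tests for Irx3 and 3 of 18 for Irx5, all lower in cKO, and 0 DESeq2 tests. The medians over all tested genes lay between -0.01 and 0.01 in each class. In the better-covered classes the 95% interval bounded the change: for Irx3 in aSHF, its highest class, it ran from -0.26 to 0.05.

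Irx4 could be tested in 5 classes and was called in 0 by edgeR and by DESeq2, with 0 at an unadjusted p under 0.05 in both. In cardiac muscle its scaled level was 23.2 CPM in cHet and 23.1 in cKO of Rep1 and 7.59 and 11.4 in Rep2 (log2 fold change 0.32, 95% interval -0.39 to 1.03, edgeR adjusted p = 0.999), so no change within this interval is excluded. Irx6 was tested in branchiomeric muscle alone, at 0.727 and 1.05 CPM in Rep1 and 0.142 and 0.355 in Rep2 (0.86, SE 0.60, edgeR adjusted p = 0.884). Cardiac muscle did show a change in 1 of the 7 genes of the ventricular list: Myl2 rose from 1359 to 2041 CPM in Rep1 and from 328 to 590 in Rep2 (0.72, SE 0.13, edgeR adjusted p = 0.000267), a call lost with doublets kept, with DESeq2, without the block and without any 1 library. Of the atrial list, 0 genes were called there. Hey2 there was 18.7 and 33.9 CPM in Rep1 and 6.47 and 14.8 in Rep2 (1.03, SE 0.35, edgeR adjusted p = 0.433).

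Other genes of the loci and of the homeobox class were read beside the members. Of 75 annotated genes within 1 Mb of either Irx cluster, 29 could be tested in some class, and edgeR called 0 of the 434 tests, with 18 at an unadjusted p under 0.05 (DESeq2 called 0, with 0 at an unadjusted p under 0.05). These include the noncoding neighbours: in cluster 1, where Irx2 was called, Gm20554 was 1.82 and 2.77 CPM in cHet and cKO of Rep1 and 2.0 and 2.37 in Rep2 (0.38, SE 0.25, edgeR adjusted p = 0.794), and the log2 fold change of Crnde was 0.11 (SE 0.09, edgeR adjusted p = 0.846). Of 226 tests of the 12 other TALE homeobox genes, 2 were called higher and 1 lower, where edgeR called 0.555% of all tests of all genes. Meis1, a cofactor of Hox proteins, rose in cluster 2 (0.38, SE 0.08, edgeR adjusted p = 0.0108) and in cluster 13 (0.75, SE 0.14, edgeR adjusted p = 3.87e-05), where it went from 24.4 to 57.3 CPM in Rep1 and from 19.1 to 23.6 in Rep2. Pknox2, a TALE factor that partners with Pbx proteins, fell in cluster 1, from 87.8 to 72.5 CPM in Rep1 and from 98.3 to 78.8 in Rep2 (-0.30, SE 0.05, edgeR adjusted p = 0.0283). Cluster 1 thus held calls of opposite sign for Irx2 and Pknox2.

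The heart lists gave 5 more calls outside cardiac muscle. Nr2f1 was higher in cKO in clusters 2, 5 and 13 (0.34, 0.30 and 0.34, edgeR adjusted p = 0.00334, 0.00411 and 0.00319). In aSHF, Myl2 was lower (6.92 to 0.744 CPM in Rep1 and 2.51 to 1.25 in Rep2, edgeR adjusted p = 0.0432), as was the slow myosin heavy chain gene Myh7 (52.3 to 21.0 and 198 to 146, edgeR adjusted p = 0.00414), and both of these were lost with another scaling, with doublets kept or with either other seed. Tbx1 was called in cluster 19 alone, lower in cKO (27.9 to 5.59 CPM in Rep1 and 3.62 to 2.02 in Rep2, -1.78, SE 0.42, edgeR adjusted p = 0.00930), and not after thinning, with doublets kept or with random seed 1. DESeq2, the fit without the block and each fit without 1 library (cHet Rep1, cKO Rep1, cHet Rep2 or cKO Rep2) called none of the genes of these lists.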

How the data were processed

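The authors deposited filtered Cell Ranger matrices of raw UMI counts per gene and cell barcode (mm10; version 8.0.1 in the submitters' processing notes, 7.0.1 in the Rep1 file headers), and no correction for RNA from outside the cells was made here. Cells with at least 3000 genes, at most 10% mitochondrial and 5% haemoglobin UMIs were kept, and the cells with the highest doublet scores, 4.03% to 5.78% per library, were removed at the rate expected for the kit, since the automatic threshold marked 0.0150% to 1.74%. Cells were normalized, reduced (2000 variable genes without Irx genes, 30 components) and clustered (Leiden, resolution 0.8) with scanpy 1.11.5. A cluster took a type name where at least 3 markers of a list had a UMI in 10% of cells and were 2-fold higher, and, in a rule added after the clusters were seen, another list with at least 3 such markers took the name where it had more markers among the cluster's 10 leading genes. UMIs were summed per library and class (at least 20 cells in each library) and tested with edgeR 4.0.16 (TMM scaling, filterByExpr, replicate block, threshold 0.05) in R 4.3.3. Log2 ratios of CPM used 5 CPM added. Fits were tested on simulated data. Same-replicate libraries deviated together, with correlations of 0.60 to 0.83 over 19 classes, and the labels tie a replicate to a kit, so replicate was a block. Embryo pools were separate. With the block, p-values measure how far the difference between genotypes varies between the replicates, with that spread estimated partly from all genes. They do not measure the spread between the replicates themselves. Named genes were the 6 members, the 3 genes most like each with at least 500 UMIs (Pearson r of log2 CPM over cluster sums, CPM of at least 20 somewhere), the 3 leading genes with against without a UMI in types with at least 10% positive cells (of these, genes with a known role were picked for the text after their values were seen), the called genes among the genes within 1 Mb, the TALE genes, the heart chamber lists, Kmt2d and Tbx1. The members and lists were chosen with earlier results of these data known. Where cells were clustered again, classes were matched by shared cells, and this step and the random seeds 1 and 2 were chosen after seeing the data.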

Additional observations from a re-analysis of the deposited data

Results flagged for a closer look

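The response of Irx2 to genotype was compared between cluster 1, taken because Irx2 was called there, and each other class (edgeR's quasi-likelihood test, Benjamini-Hochberg adjusted over all genes of that fit). The log2 fold change in cluster 1 exceeded that in MLPs by 0.32 (adjusted p = 0.00413) and that in pSHF by 0.46 (adjusted p = 0.00121), the 2 called of 18 comparisons. The others ran from -0.33 for cluster 12 to 0.79 for cluster 10, cluster 1 was chosen for its high value, and the comparison was not repeated under the settings that lost the call. Other contrasts between classes are counts of classes in which each cKO library lay on the same side of the cHet library of its replicate, and these were not tested as differences. The classes share the same 4 libraries, and over all genes 25.7% of tests lay above and 25.5% below in both replicates. Irx1 lay above in 2 classes and below in 7. Irx2 lay above in 8 and below in 3, whereas Irx3 lay above in 2 and below in 10. Irx5 lay above in 1 and below in 9, and Irx4, tested in 5 classes, above in 2 and below in 1. Outside the kept cells, barcodes under 1000 UMIs held Irx RNA at 21.5 to 56.0 CPM for Irx1, 12 to 40.6 for Irx2, 51.1 to 69.4 for Irx3 and 26.3 to 44.2 for Irx5 over the 4 libraries. Whether these barcodes are empty droplets or damaged cells was not tested, nor was their part in the levels of the cell classes.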

How the results depend on the processing

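The 1 Irx call, that of Irx2 in cluster 1, became 0 in all and 0 in cluster 1 with DESeq2 (with or without independent filtering), without the replicate block, after thinning to 5000 UMIs, with doublets kept, with clustering seeds 1 and 2 and without any 1 library. It became 2 with every gene that had a count, with 1 in cluster 5. The clusters also moved with the number of computing threads, and before this was fixed a run not tabulated here gave more clusters and more than the 1 Irx2 call. The Irx2 log2 fold change in cluster 1 was 0.35 with DESeq2 (with or without independent filtering), 0.34 without the replicate block, 0.35 after thinning, 0.28 with doublets kept, 0.36 and 0.27 with seeds 1 and 2, and 0.22 to 0.47 without 1 library. The cause of these losses was not tested, apart from the fits without the block or a library, which carry the difference between replicates in their error. Over all genes the call count went from 1343 to 114 with DESeq2, 113 without its independent filtering, 0 without the block, 0 to 16 without 1 library, 617 after thinning and 3072 with every gene that had a count. Median shares of cells after thinning were 38.2% for Irx1 and 25.6% for Irx2 in cluster 1, 33.7% for Irx3 in aSHF, 25.2% for Irx5 in cluster 13 and 0.188% for Irx6 in branchiomeric muscle, in place of 75.3%, 60.8%, 74.5%, 66.0% and 1.17%. Levels moved to 9.29 CPM with doublets kept and 9.62 with seed 1 for Irx4 in cardiac muscle, to 95.1 for Irx3 in aSHF and 78.2 for Irx5 in cluster 13 with seed 1, and ran from 86.3 to 124 for Irx1 in cluster 1 without 1 replicate. Co-detection odds ratios for Irx1-Irx2, Irx3-Irx5, Irx1-Irx3, Irx1-Irx5, Irx2-Irx3 and Irx2-Irx5 were 3.35, 1.75, 1.56, 1.31, 1.59 and 1.47 without strata and 3.59, 2.47, 1.86, 1.74, 1.80 and 1.62 without thinning. In single libraries they ran from 1.58 to 2.12, 1.44 to 1.55, 1.02 to 1.39, 1.03 to 1.27, 1.14 to 1.29 and 1.09 to 1.34. Of the values recomputed, 316 kept their direction and their side of the threshold or moved by less than their spread, 29 moved by more, 33 lost and 2 gained their place past the threshold or in the count of calls.

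With 2 pools per genotype, small changes of low genes such as Irx4 and Irx6 were beyond reach, and intervals of shares cover counting error only. When Irx genes were allowed in the clustering, 0 of them were among the variable genes, so the clusters and the call were identical and this alternative bears on no result.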
